A study of Mus musculus with 4 samples.

Results

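The genes that make, read and destroy the cyclic nucleotides cAMP and cGMP were followed in mouse pancreatic islets treated with GKA, a glucokinase activator. They were taken by gene name from the array design: the adenylyl and guanylyl cyclases, the subunits of protein kinase A, the cGMP-dependent kinases, the EPAC exchange factors and the phosphodiesterases. The names matched 76 of the 39429 non-control probes and 51 of the 26265 named genes. Of these 51 genes, 40 were tested, among 17178 genes in all, because 1 of the groups had a probe of the gene well above background on both of its arrays. The GKA group held islets isolated from C57BL/6 mice aged 8 weeks and kept for 24 h in RPMI1640 with 5.6 mM glucose and 30 µM GKA, and the vehicle group held islets of the same strain and age given DMSO in the same medium for the same time. Each group had 2 samples of total RNA, each labelled with Cy3 and hybridised to its own 1-colour Agilent array. Whether the 2 samples of a group are separate mice or cultures is not given by the labels; the p-values therefore describe the spread between these 4 samples alone, which may be technical.

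Cyclic AMP is made from ATP by adenylyl cyclases under the control of G proteins, and cyclic GMP from GTP by guanylyl cyclases, which sense nitric oxide in the cytosol or peptides at the cell surface. Cyclic AMP frees the catalytic subunits of protein kinase A from their regulatory subunits and also opens the EPAC proteins, while cyclic GMP activates its own kinases, and phosphodiesterases end both signals by hydrolysis. In beta cells, glucose metabolism and gut hormones raise cAMP, which strengthens the release of insulin that glucose starts.

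On each array 23520 to 25056 probes (59.7% to 63.5%) were well above background, and no probe of the 51 genes was saturated. The 75th percentile of intensity was 557 and 598 units on the GKA arrays, against 751 and 755 units on the vehicle arrays. Values are given as log2 intensity minus this percentile, so that 0 is the 75th percentile of the array. The preparations carried islet markers, since all 10 of 10 endocrine markers were well above background on every array. All 4 arrays came from 1 slide and 1 scan, with GKA at positions 3 and 4 and vehicle at positions 1 and 2, so that slide position and group cannot be told apart. In a mixed tissue such as the islet, fewer cells of a type and less RNA per cell cannot be told apart.

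After 24 h with GKA, transcripts of the protein kinase A regulatory subunit Prkar1a, of the phosphodiesterases Pde10a, Pde8b, Pde9a and Pde4d and of the receptor guanylyl cyclase Gucy2c were higher, and those of the regulatory subunit Prkar1b and of the cGMP kinase Prkg2 were lower. These 6 higher and 2 lower genes are the 8 of 40 that passed an adjusted p of 0.05 (limma with Benjamini-Hochberg adjustment over all 17178 genes). The share was 20% of those tested, against 17.1% of all genes; 15% rose, against 9.11% of all genes, and 5% fell, against 8.01%. The arrays of the groups did not overlap for 18 genes that were higher with GKA (45%, against 32.4% of all genes) and for 9 that were lower (22.5%, against 33.5%). The count of calls was therefore close to that of any genes on the array, and the description below is of which genes they were. The median log2 fold change of the 40 genes was 0.08, against -0.01 over all genes. Without scaling between arrays, every log2 fold change shifts by -0.38, so that this median turns to -0.30 against -0.40 over all genes, and the split of calls becomes 4 higher and 13 lower. Scaling on the spike-in controls gave 3 higher and 8 lower. With every probe tested, however dim, 223 genes passed in all, and of the 8 only Pde10a and Prkg2. All 8 genes kept their direction in every setting tried, although not always their call, as the plot of the 8 genes under each setting shows.

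**Figure D1:**
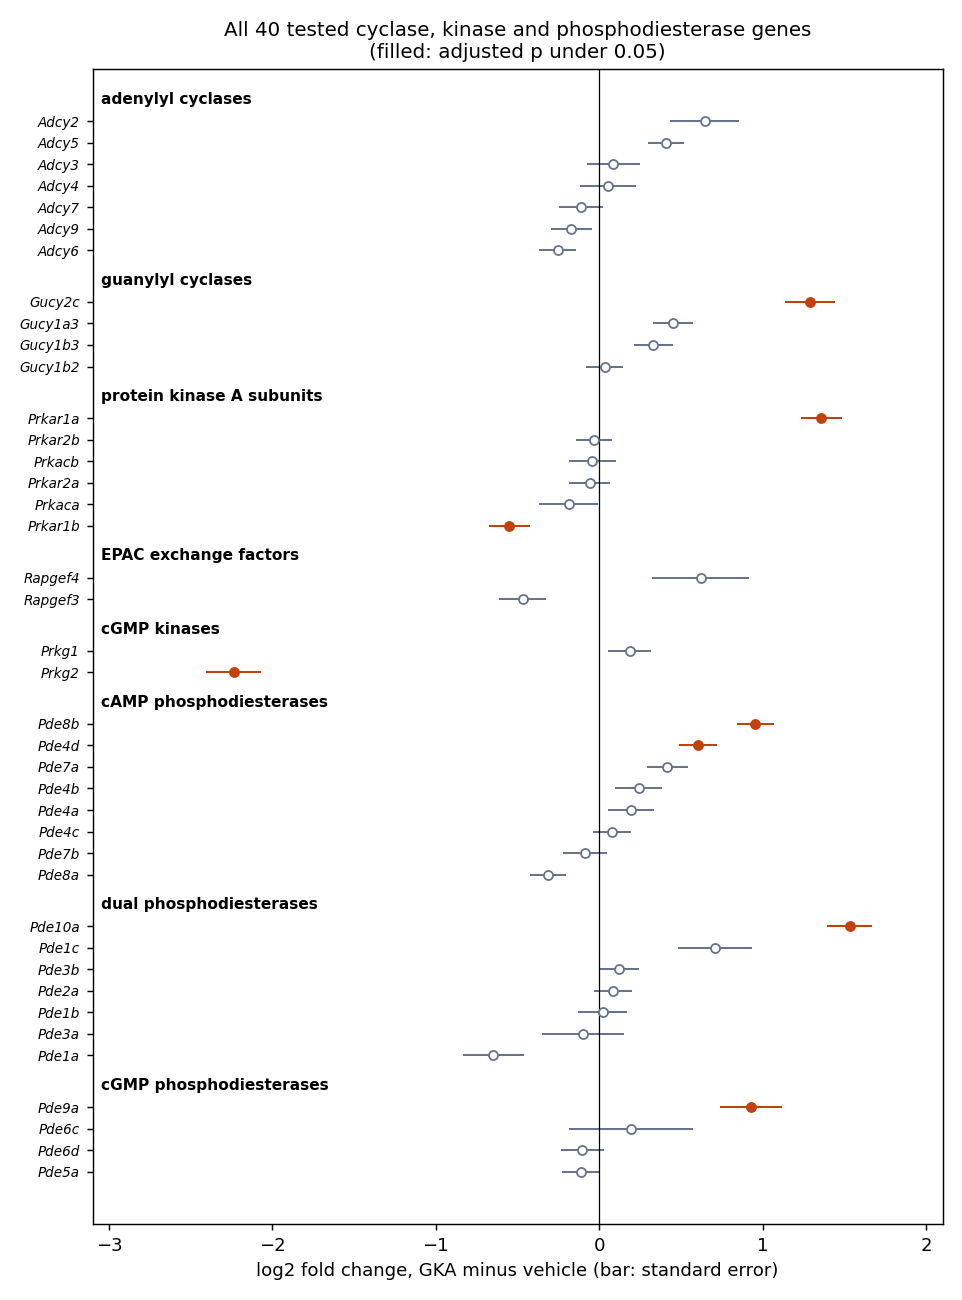
Log2 fold change of GKA minus vehicle (x axis) for the 40 tested genes, grouped by role down the page, with bars for the standard error from limma and filled points for genes that passed. Passing genes lie between -2.24 (Prkg2) and 1.53 (Pde10a), and most others lie near 0.

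The regulatory subunits of protein kinase A did not move together. Prkar1a, the type I alpha subunit that holds the catalytic subunit inactive until cAMP binds, stood at 5.90 and 5.70 on the GKA arrays, against 4.44 and 4.44 on the vehicle arrays. Both GKA arrays lay more than a log2 unit above both vehicle arrays, and the replicates of each group lay close together. The log2 fold change was 1.36 ± 0.13 (SE, n = 2 each), a 2.57-fold rise with an adjusted p of 0.00623 in limma. A second Prkar1a probe, with values of 2.21 and 2.19 in GKA islets and 0.87 and 1.00 in vehicle islets, gave 1.27 and an adjusted p of 0.00557 over probes. In unscaled intensity the brighter probe read 33247 and 31022 units with GKA and 16246 and 16429 units with vehicle. With spike-in scaling the log2 fold change was 0.87 and the call was kept.

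Prkar1b, the type I beta subunit, known best from brain, changed the other way. It had 3.43 and 3.33 on the GKA arrays, against 4.02 and 3.84 on the vehicle arrays. The groups did not overlap, and the fall was of 1.46-fold (log2 fold change -0.55 ± 0.13, SE, n = 2 each, adjusted p = 0.0428 in limma). Its second probe agreed in sign, at -0.64, with 1.16 and 1.08 in GKA islets and 1.88 and 1.63 in vehicle islets. This call was lost when 1 array was left out: the adjusted p was 0.125 without GKA array 1, 0.174 without GKA array 2 and 0.133 without vehicle array 1. Without scaling the log2 fold change was -0.93 and with spike-in scaling -1.04, both past the threshold.

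The catalytic subunits, which carry the kinase activity, and the type II regulatory subunits did not pass. Prkaca had -2.30 and -1.91 on the GKA arrays, against -1.78 and -2.05 on the vehicle arrays, so the groups overlapped and the log2 fold change was -0.19 ± 0.18 (SE, n = 2 each). Prkacb gave -0.04 from its brighter probe and 0.01 from another. Prkar2a gave -0.06 and Prkar2b -0.03, with standard errors of 0.12 and 0.11. These results depended on the scaling: Prkar2a and Prkar2b passed as lower without it (adjusted p = 0.0339 and 0.0307), and Prkaca with spike-in scaling (adjusted p = 0.0381). The log2 fold change of Prkar1a exceeded that of Prkacb by 1.40 and that of Prkar1b by 1.91, differences that no constant shift of a whole array can alter. Quantile scaling is not such a shift. These differences were not tested.

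**Figure D2:**
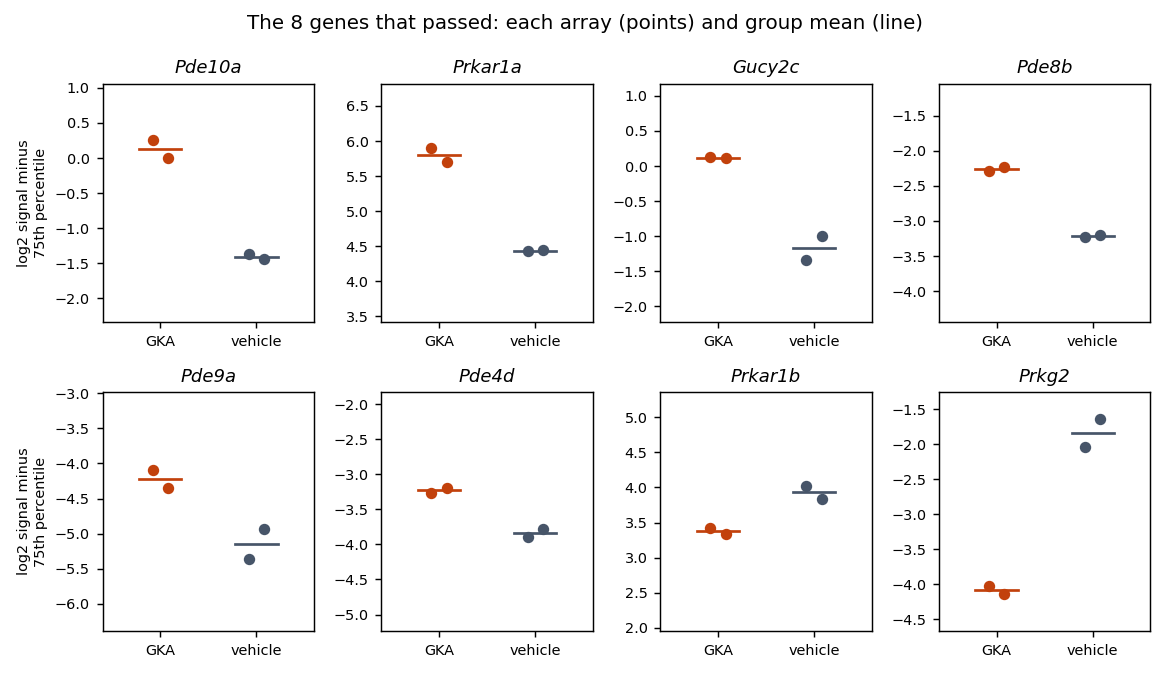
Log2 signal minus the array's 75th percentile (y axis, same span in each panel) for the 8 genes that passed, with 1 point per array and a line at the group mean, GKA left and vehicle right. In each panel the GKA points lie wholly above or wholly below the vehicle points.

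Promoter windows are printed below for genes that passed and hold the cAMP response element or its core, 1 window for each. The full element, TGACGTCA, is the site bound by CREB and CREM. Prkar1a was the only gene, among the 41 with a promoter entry, that carries the full element in its annotated promoters. RefSeq promoter windows of build GRCm38.p6, from 250 bases before to 50 after the start, were matched by Entrez gene number for 41 of the 51 genes and gave 81 windows. The full element was searched with its core TGACG, which reads CGTCA on the other strand; the full element contains the core on both. Capitals mark these letters, and each window is written 5′ to 3′ along the gene.
Prkar1a, chr11:109650612-109650911, plus strand: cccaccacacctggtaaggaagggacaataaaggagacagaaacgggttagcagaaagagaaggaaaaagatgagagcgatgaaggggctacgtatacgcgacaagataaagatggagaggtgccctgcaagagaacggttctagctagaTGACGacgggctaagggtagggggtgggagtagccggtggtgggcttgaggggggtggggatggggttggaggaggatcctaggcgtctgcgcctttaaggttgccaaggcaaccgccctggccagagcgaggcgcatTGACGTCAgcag
Prkar1b, chr5:139149952-139150251, minus strand: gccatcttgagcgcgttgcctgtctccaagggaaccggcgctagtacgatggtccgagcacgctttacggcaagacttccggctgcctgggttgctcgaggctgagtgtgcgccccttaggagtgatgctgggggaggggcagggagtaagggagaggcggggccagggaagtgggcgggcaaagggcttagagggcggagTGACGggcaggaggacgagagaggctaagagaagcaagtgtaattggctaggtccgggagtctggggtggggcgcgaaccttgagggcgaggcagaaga
Pde8b, chr13:95223001-95223300, minus strand: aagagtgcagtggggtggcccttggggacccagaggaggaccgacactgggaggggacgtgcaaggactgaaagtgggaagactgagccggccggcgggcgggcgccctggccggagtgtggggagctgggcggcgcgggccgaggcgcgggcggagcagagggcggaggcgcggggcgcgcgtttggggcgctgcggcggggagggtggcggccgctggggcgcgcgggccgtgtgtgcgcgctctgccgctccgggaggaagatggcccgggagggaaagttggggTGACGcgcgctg
In Prkar1a the full element begins 39 bases into the transcript of this window, at 109650900 to 109650907 of chromosome 11, and a separate core lies at -100. A second, overlapping Prkar1a window holds the same element, and the other windows of its 6 lack it. The core begins at -49 in the Prkar1b window and at position 39 in the Pde8b window. No match was found in the 2 Pde10a windows or the single Pde4d window, which says only that these letters are not there. Over all 32851 windows of the table, 1.79% hold the full element and 20.8% the core, and 23.5% of the 81 windows hold the core. Counted by gene, the full element is in at least 1 window of 2.03% of the genes in the table. The 1 of 41 genes found here is close to that share. A gene with more windows has more chances of a match, and 41.5% of the 41 genes hold the core in at least 1 window, against 23.0% of the 27025 genes in the table. In all, 17 of the 41 genes hold the core, and most of these did not pass. Of the passing genes, 5 had a promoter entry and 3 of these hold the core: Prkar1a and Pde8b, which rose, and Prkar1b, which fell. Prkg2, Gucy2c and Pde9a had no entry.

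Among the phosphodiesterases, 4 of the 19 tested rose in limma and 0 fell, with 2 lower at an unadjusted p of 0.05 (Pde1a and Pde8a), and the other 15 did not pass. The 21.1% that rose stand against 9.11% of all genes. The split turned with the scaling: 2 rose and 5 fell without scaling, 1 rose and 2 fell with spike-in scaling, and 6 rose and 0 fell with normexp background correction. Pde10a, which hydrolyses both cAMP and cGMP, changed the most. It stood at 0.26 and -0.0023 on the GKA arrays, against -1.37 and -1.44 on the vehicle arrays, with no overlap and a wide gap between the groups. The rise was of 2.89-fold (log2 fold change 1.53 ± 0.14, SE, n = 2 each, adjusted p = 0.00578 in limma). A second probe, designed to the same transcript, had -0.36 and -0.72 in GKA islets and -1.88 and -1.85 in vehicle islets and gave 1.33, with an adjusted p of 0.010 over probes. The third Pde10a probe was too dim to be used on all 4 arrays. Pde10a and Prkg2 were the only genes of the 51 to pass in all 14 alternative settings.

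Pde8b, a cAMP-specific enzyme of high affinity, had -2.29 and -2.24 on the GKA arrays, against -3.23 and -3.21 on the vehicle arrays. The replicates were almost equal in both groups and the rise was of 1.94-fold (0.96 ± 0.11, SE, n = 2 each, adjusted p = 0.0109 in limma). Leaving out GKA array 1 or GKA array 2 gave the same size of change but an adjusted p of 0.0527 and 0.0609. Without scaling the log2 fold change was 0.57, and with spike-in scaling it was 0.47 with an adjusted p of 0.147. The related enzyme Pde8a did not pass, at -0.31 ± 0.11, with -4.47 and -4.46 in GKA islets and -4.14 and -4.17 in vehicle islets. Pde8a passed as lower without scaling and with spike-in scaling, and turned to 0.11 with normexp background correction, where it did not pass. The log2 fold change of Pde8b exceeded that of Pde8a by 1.27, a difference that was not tested.

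Pde4d, a cAMP-specific enzyme of the rolipram-sensitive family, had -3.27 and -3.19 on the GKA arrays, against -3.89 and -3.78 on the vehicle arrays. This was a 1.52-fold rise (0.60 ± 0.12, SE, n = 2 each, adjusted p = 0.0296 in limma), the smallest of the 6 rises. It did not hold without scaling, where the log2 fold change was 0.22, nor with spike-in scaling (0.12, adjusted p = 0.723), and it was 0.39 with normexp background correction, where it passed. It was lost without GKA array 1 (adjusted p = 0.104), GKA array 2 (0.133) or vehicle array 1 (0.0875). Its family members gave 0.19 for Pde4a, 0.24 for Pde4b and 0.08 for Pde4c, and none of these 3 passed; all 3 turn negative without scaling. Pde7a, another cAMP-specific enzyme, gave 0.42 from its brighter probe (adjusted p = 0.0786) and 0.08 from a second probe, and Pde7b gave -0.09.

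Pde9a, a cGMP-specific enzyme of high affinity, was dim, with -4.10 and -4.35 in GKA islets and -5.37 and -4.93 in vehicle islets. The groups did not overlap, although the vehicle arrays differed from each other more than the GKA arrays did. The log2 fold change was 0.93 ± 0.19 (SE, n = 2 each), a 1.90-fold rise with an adjusted p of 0.0329 in limma. In unscaled intensity it read 32.5 and 29.4 units with GKA and 18.2 and 24.7 units with vehicle. The call was lost without GKA array 1 (adjusted p = 0.125), GKA array 2 (0.0886) or vehicle array 1 (0.0635) and without scaling, where the log2 fold change was 0.54 (adjusted p = 0.0546). It was 0.44 with spike-in scaling and did not pass, and 0.51 with normexp background correction and passed. Of the other enzymes for cGMP, Pde5a, the target of sildenafil, gave -0.11 ± 0.11, and the cone photoreceptor subunit Pde6c gave 0.19 ± 0.38. Pde6c was well above background on both vehicle arrays and 1 GKA array. Pde6d, which binds prenylated proteins and is not itself a catalytic subunit, gave -0.10.

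Pde1c, a calcium- and calmodulin-stimulated enzyme of cAMP and cGMP, depended on the probe. Its brighter probe had -2.24 and -2.83 on the GKA arrays, against -3.37 and -3.12 on the vehicle arrays, and did not pass (0.71 ± 0.22, SE, n = 2 each, adjusted p = 0.0883 in limma). The probe for another transcript had -2.42 and -2.58 in GKA islets and -3.48 and -3.44 in vehicle islets and did pass, at 0.96 with an adjusted p of 0.0116 over probes. The GKA arrays were higher than both vehicle arrays on both probes, and the spread between the GKA arrays was larger on the first. The mean over probes passed, at 0.84 with an adjusted p of 0.0309. Its relatives gave -0.65 for Pde1a (adjusted p = 0.0702 in limma) and 0.02 for Pde1b. Pde1a passed as lower without scaling and with spike-in scaling.

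**Figure D3:**
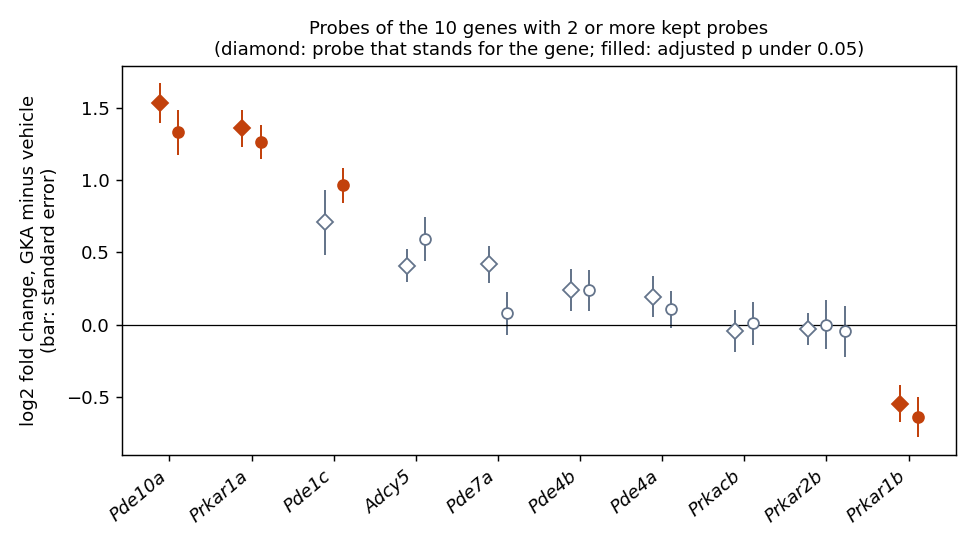
Log2 fold change of GKA minus vehicle (y axis) with standard error bars for every kept probe of the 10 genes with 2 or more kept probes. Diamonds mark the brightest probe, which stands for the gene, and filled symbols mark an adjusted p under 0.05 over probes; both probes passed for Pde10a, Prkar1a and Prkar1b and 1 of 2 for Pde1c.

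Pde3b, the phosphodiesterase that limits cAMP in beta cells and adipocytes and is inhibited by cGMP, was at 2.44 and 2.49 on the GKA arrays and 2.27 and 2.42 on the vehicle arrays. The GKA arrays were barely above the vehicle arrays, and the log2 fold change of 0.12 ± 0.12 did not pass (SE, n = 2 each, adjusted p = 0.502 in limma). Its sister gene Pde3a, well above background on both vehicle arrays and 1 GKA array, gave -0.10, and the cGMP-stimulated enzyme Pde2a gave 0.09. Pde11a and the rod photoreceptor subunits Pde6a and Pde6b were not well above background on both arrays of either group and were not tested.

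On the cGMP side, the receptor cyclase and the membrane-bound kinase moved in opposite directions. Gucy2c, the receptor cyclase for guanylin and uroguanylin, known from the gut, had 0.12 and 0.12 on the GKA arrays, against -1.34 and -0.995 on the vehicle arrays. The GKA arrays agreed closely, and the 2.44-fold rise passed (1.29 ± 0.15, SE, n = 2 each, adjusted p = 0.0113 in limma). Without GKA array 1 the adjusted p was 0.0544 and without GKA array 2 it was 0.0577, with log2 fold changes of 1.29 and 1.29. With spike-in scaling it was 0.80 and passed. Gucy2c is measured by 1 probe, on chromosome 6 at 136646532 to 136648027 of build mm9, a span longer than the probe itself.

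Prkg2, the membrane-bound cGMP kinase, fell the furthest of the 40 tested genes. It had -4.02 and -4.14 on the GKA arrays, against -2.04 and -1.65 on the vehicle arrays, a fall of 4.71-fold (log2 fold change -2.24 ± 0.17, SE, n = 2 each, adjusted p = 0.00462 in limma). The unscaled intensity was 34.4 and 33.9 units with GKA and 182 and 241 units with vehicle, so the GKA values lay near the dim end of the scale while still well above background on both arrays. With normexp background correction and an offset of 50 units, which pulls dim values up, the log2 fold change was -1.06 and the call was kept, with a size then below that of Pde10a (1.36) and Gucy2c (1.17). Prkg1, the soluble cGMP kinase of smooth muscle and other tissues, gave 0.19 ± 0.13 and did not pass, with -3.12 and -3.23 in GKA islets and -3.46 and -3.25 in vehicle islets. The log2 fold change of Prkg2 minus that of Prkg1 was -2.42, which was not tested.

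The soluble guanylyl cyclase, the nitric oxide receptor, is a pair of an alpha and a beta subunit. Its beta subunit Gucy1b3, now named Gucy1b1, had -1.04 and -0.88 on the GKA arrays, against -1.29 and -1.29 on the vehicle arrays, and gave 0.33 ± 0.12 (SE, n = 2 each, adjusted p = 0.115 in limma). Its alpha subunit Gucy1a3, now named Gucy1a1, gave 0.45 with an adjusted p of 0.0626. Neither passed, although the groups overlapped for neither gene. With spike-in scaling the values were -0.16 for Gucy1b3 and -0.04 for Gucy1a3, and with normexp both passed, at 0.38 (adjusted p = 0.0251) and 0.37 (adjusted p = 0.0303). Gucy1b2 gave 0.03. Gucy1a2 and the receptor cyclases Gucy2d, Gucy2e, Gucy2f and Gucy2g were not tested, being too dim.

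Of the 7 adenylyl cyclases tested, 0 passed in limma, and 2 had an unadjusted p under 0.05 (Adcy5 and Adcy2). Of all genes, 17.1% passed and 36.1% had such an unadjusted p. Adcy5, a calcium-inhibited cyclase, came nearest, with -3.59 and -3.62 on the GKA arrays, against -4.04 and -4.00 on the vehicle arrays. The groups were separate by more than the spread within either, at 0.41 ± 0.11 (SE, n = 2 each, adjusted p = 0.0615 in limma). A second Adcy5 probe gave 0.59 with an adjusted p of 0.0533 over probes, and the mean over probes passed (0.50, adjusted p = 0.0483). Adcy2 gave 0.64 (adjusted p = 0.0916), and without vehicle array 2 it passed at 0.87 (adjusted p = 0.0378). The others were 0.08 for Adcy3, 0.06 for Adcy4, -0.11 for Adcy7, -0.17 for Adcy9 and -0.25 for Adcy6, with the 2 positive values negative without scaling. Adcy6 and Adcy9 passed as lower with no scaling and also on the spike-in scale (adjusted p = 0.0225 and 0.0433 there), Adcy7 passed as lower without scaling (adjusted p = 0.0460), and Adcy2 passed as higher with normexp (adjusted p = 0.0292). Adcy8, the calcium-stimulated cyclase often named in beta cells, Adcy1 and the bicarbonate-activated Adcy10 were not well above background on both arrays of either group, so no change in them could be measured here.

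The EPAC proteins, which load the small GTPase RAP when cAMP binds, did not pass in limma, and 1 of the 2 had an unadjusted p under 0.05 (Rapgef3). Such an unadjusted p was reached by 36.1% of all genes. Rapgef4, the EPAC2 gene of beta cells, had -4.01 and -3.12 on the GKA arrays, against -4.22 and -4.15 on the vehicle arrays. Its difference rested mostly on GKA array 2: the log2 fold change was 0.62 ± 0.29 with all arrays (SE, n = 2 each, adjusted p = 0.195 in limma), 1.06 without GKA array 1 (adjusted p = 0.0472) and 0.18 without GKA array 2. With normexp Rapgef4 passed as higher (adjusted p = 0.0234). Rapgef3, the EPAC1 gene, gave -0.47 ± 0.15 (adjusted p = 0.0837) and passed as lower without scaling (-0.85), with spike-in scaling (-0.96) and with normexp (-0.43), with -0.16 and -0.47 in GKA islets and 0.18 and 0.13 in vehicle islets.

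**Figure D4:**
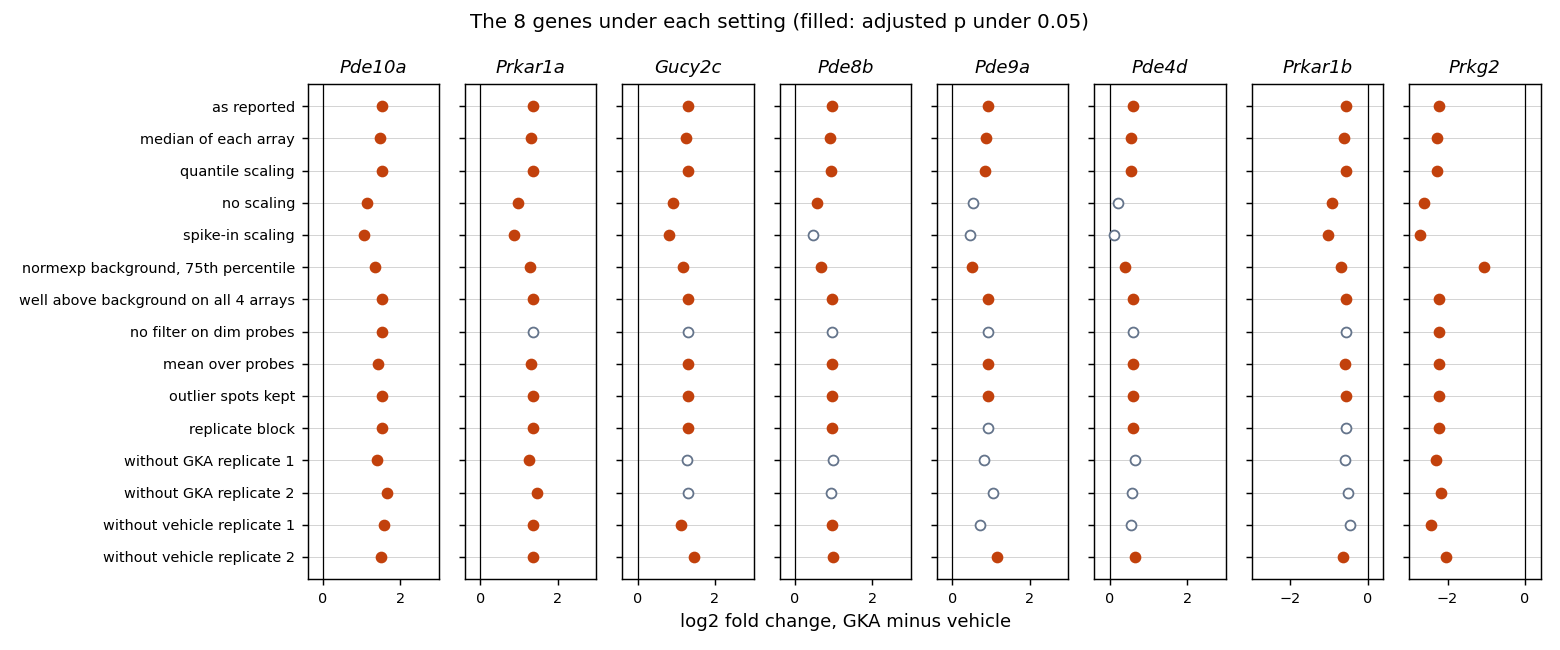
Log2 fold change of GKA minus vehicle (x axis) for the 8 genes, 1 panel each, as reported and under 14 other settings (down the page), with filled points where the adjusted p is under 0.05. No point crosses 0; Pde10a and Prkg2 are filled in all 14 settings, Prkar1a in 13 and Pde9a in 7.

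Replicate agreement sets what these 4 arrays can show. The median absolute difference between the GKA arrays was 0.12 over the 40 genes, and between the vehicle arrays 0.15, on the log2 scale. The median absolute log2 fold change was 0.22, against 0.26 over all genes. It compares means of 2 arrays, whereas the replicate differences compare single arrays, so their sizes are not directly comparable. At an unadjusted p of 0.05, 17 of the 40 passed in limma (42.5%, against 36.1% of all genes). In the authors' deposited table, whose ratios are not scaled between arrays and have a median of 0.841 over all probes, the ratio of GKA over control was 2.22 and 1.93 for the Pde10a probes, 1.97 and 1.84 for Prkar1a, 1.86 for Gucy2c and 0.161 for Prkg2. The same authors' deposited table gave 1.49 for Pde8b, 1.44 for Pde9a, 1.17 for Pde4d, and 0.522 and 0.489 for the Prkar1b probes.

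Upstream and downstream partners were read from 8 lists with 109 genes, of which 83 were tested. Of these, 20 rose (24.1%, against 9.11% of all genes) and 8 fell (9.64%, against 8.01%). The lists were chosen with earlier results of these data known, so these shares are a description and were not tested. They hold for the scaling as reported and are not given without it, where 750 of all genes passed as higher and 7654 as lower. Receptors that act on islet cAMP gave 8 higher and 4 lower of 21 tested and a median log2 fold change of 0.31, which is -0.08 without scaling. Vipr1, a receptor for vasoactive intestinal peptide and PACAP, had 3.88 and 4.08 on the GKA arrays, against 2.53 and 2.52 on the vehicle arrays (1.45 ± 0.12, SE, n = 2 each, adjusted p = 0.00533 in limma). Its relative Vipr2 had -2.13 and -2.41 with GKA and 0.85 and 0.52 with vehicle, a fall of 2.96 on the log2 scale. The prostaglandin E receptor Ptger3 (1.33) and the galanin receptor Galr1 (1.01), both coupled to inhibition of adenylyl cyclase, also rose; Ptger3, like Adcyap1r1 below, was well above background on both GKA arrays and 1 vehicle array, and passed the filter through the GKA arrays. The glucagon receptor Gcgr (-1.35) and the GLP-1 receptor Glp1r (-0.93), both coupled to its stimulation, fell. The inhibitory receptors Sstr2 (0.86), Adra2a (0.74), Sstr1 (0.65) and Sstr4 (0.62) rose as well. Receptors of either coupling moved in either direction, although most that rose were inhibitory and most that fell were stimulatory, which was not tested. Vipr1 and the PACAP receptor Adcyap1r1 (0.79), both stimulatory, rose, and the inhibitory adenosine receptor Adora1 (-0.63) fell. Glp1r stood at -1.37 and -1.33 in GKA islets and -0.33 and -0.51 in vehicle islets, with no overlap.

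Of 7 G protein alpha subunits that act on adenylyl cyclase, 0 rose and 1 fell in limma, against 9.11% and 8.01% of all genes. At an unadjusted p of 0.05 in limma, 1 was higher (Gnai3, at 0.46). The gene that fell was Gnai2, an inhibitory subunit, with 5.34 and 5.22 on the GKA arrays, against 6.53 and 6.42 on the vehicle arrays (-1.19 ± 0.12, SE, n = 2 each, adjusted p = 0.00761 in limma). The stimulatory subunit Gnas gave 0.14 and did not pass. Of 11 A-kinase anchoring proteins, which tether protein kinase A, only Akap13 passed (0.90), against 17.1% of all genes. Of the 4 genes for protein kinase A inhibitors and PRKX, 0 passed in limma and 1 had an unadjusted p under 0.05, against 17.1% and 36.1% of all genes. Pkia gave 0.01 and Pkib -0.02.

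Among 13 tested CREB proteins, coactivators and SIK kinases, 2 rose and 1 fell, with a median of 0.08 that is -0.30 without scaling. Of all genes, 9.11% rose and 8.01% fell. Crem, which encodes activator and repressor factors that bind the cAMP response element, had 2.01 and 1.67 on the GKA arrays, against -0.15 and -0.04 on the vehicle arrays, a 3.83-fold rise. Sik1, a kinase that holds CREB coactivators in the cytosol, had -0.58 and -0.58 with GKA and -2.59 and -1.84 with vehicle. The coactivator Crtc3 fell by 0.50 on the log2 scale. Creb1 itself gave 0.16 and did not pass.

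For the lists that follow, 9.11% of all genes rose and 8.01% fell. Of 9 tested genes for cGMP supply and cGMP kinase targets, 2 rose, with a median of 0.50 that is 0.12 without scaling. Vasp, a cytoskeletal substrate of cyclic nucleotide kinases, rose by 0.91 and the natriuretic peptide receptor Npr2 by 0.57 on the log2 scale. Guca2a, which encodes the Gucy2c ligand guanylin, gave 0.29 with an adjusted p of 0.410. Of 11 tested channels, RAP proteins and exporters, 4 rose and 2 fell, with a median of 0.006 that is -0.38 without scaling. Among those that rose were Rap1b (0.88), the cAMP exporter Abcc4 (0.77) and the cyclic nucleotide-modulated channel Hcn2 (0.70). Pclo, a scaffold of the secretory zone that binds EPAC2, fell by 0.65, and Hcn3 by 0.53. Of 7 phosphodiesterase and cyclase proteins outside the name rule, 3 rose, with a median of 0.55 that is 0.16 without scaling. These were Guca1a (0.70) and Guca1b (0.68), calcium sensors of retinal guanylyl cyclases, and the cone phosphodiesterase inhibitor subunit Pde6h (0.63). Pde6h was dim, with -5.05 and -4.86 in GKA islets and -5.53 and -5.65 in vehicle islets. The lowest values well above background were -5.96 to -5.46, by array. Without scaling every log2 fold change shifts by -0.38.

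**Figure D5:**
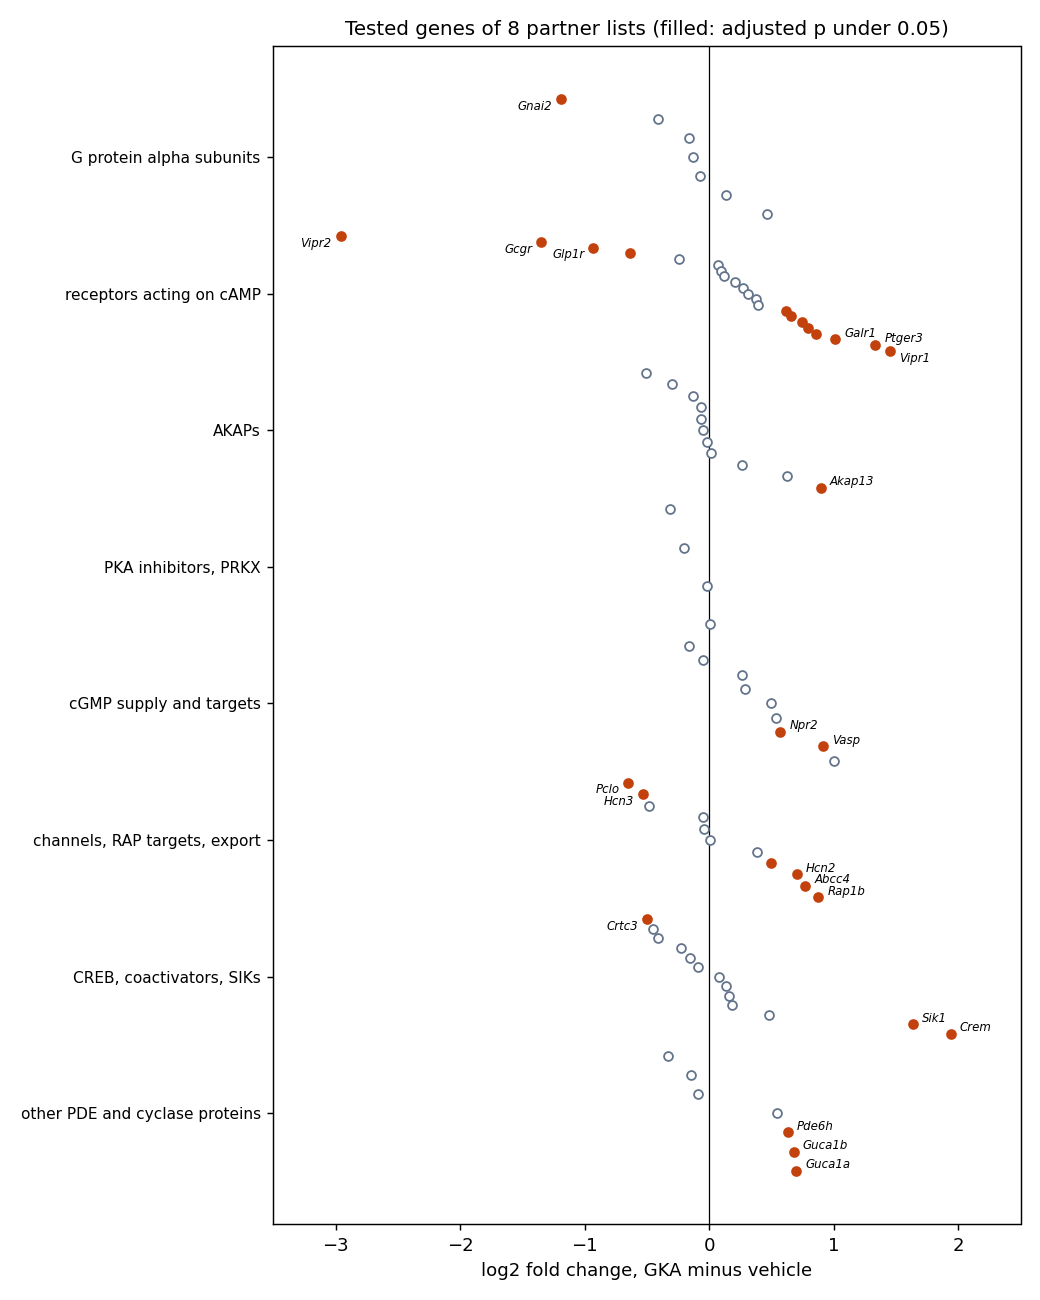
Log2 fold change of GKA minus vehicle (x axis) for the 83 tested genes of the 8 partner lists (down the page), 1 point per gene, filled where the adjusted p was under 0.05. The filled points run from -2.96 (Vipr2) to 1.94 (Crem), and the receptor list holds 12 of the 28.

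Markers of other cell types also moved. For comparison, 9.11% of all genes rose, 8.01% fell and 36.1% had an unadjusted p under 0.05 in limma. Of 10 endocrine markers 2 rose, Pdx1 by 1.11 and Sst by 0.83, with 6 higher at an unadjusted p of 0.05. Their summed level, in multiples of the array's 75th percentile, was 3200 and 3058 with GKA and 2569 and 2541 with vehicle. Such sums depend on the scaling. Without it every log2 fold change shifts by -0.38, which is larger in size than the endocrine markers' median of 0.31. Of 10 leukocyte markers 4 fell, among them Lyz2 (-2.14) and Aif1 (-1.56), and Cd14 rose (1.32). Lyz2 was well above background on both vehicle arrays and 1 GKA array, and passed the filter through the vehicle arrays. The leukocyte markers had summed levels of 8.78 and 8.18 in GKA islets and 9.15 and 8.74 in vehicle islets. Of 8 neuronal and Schwann cell markers 3 rose, led by Tubb3 (1.05), with sums of 11.9 and 12.1 in GKA islets and 11.4 and 11.01 in vehicle islets. Duct markers gave 1 higher, Spp1 at 2.26, and 2 lower of 6, and endothelial and fibroblast markers 1 in each direction. Of the 8 smooth muscle markers 0 passed in limma, with 4 at an unadjusted p under 0.05, and of the 4 acinar markers 0 passed, with 1 at that p. The part of these cell types in the changes of the cyclases, kinases and phosphodiesterases was not tested.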

How the data were processed

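Fluorescence of 1-colour Agilent arrays was measured in 4 islet samples. The intensity of each spot was background-subtracted and detrended by Agilent Feature Extraction, version 10.7.3.1 per the file headers and 9.1 per the submitters' processing notes. The authors also deposited a table with 1 intensity per group and probe and a GKA-to-control ratio; its 152 group values for these probes all lay within 0.1% of the mean of the 2 arrays, so its ratios are unscaled. Gene names and mm9 probe positions come from that table.

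Control spots and outlier spots were left out. Each array's log2 intensities had its 75th percentile subtracted and were averaged over the spots of a probe. A probe was kept if both arrays of a group had it well above background, and the probe with the highest mean signal stood for the gene. GKA and vehicle were compared with limma 3.58.1 in R 4.3.3 (lmFit, eBayes, two-sided, Benjamini-Hochberg), with 2 residual and 3.33 prior degrees of freedom. With 4 arrays the smallest two-sided permutation p is 0.333, so none is reported. The test was checked on data simulated from its own fitted variances with independent noise. Such a check does not cover slide position, the scaling between arrays or dependence between samples. Precision is limited by the number of arrays.

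The genes, the partner and marker lists and the rule for naming were chosen with earlier results of these data known. All 51 genes are named. Values by array are given for genes that passed and for a short fixed set, and up to 3 passing genes per direction are given for each partner list; other genes were named as examples. A marker gene that the rule took is not reported here. Alternatives covered scaling, background correction, the filter on dim probes, the choice of probe, a replicate block and leaving out each array. The array files used here carry a median but no mean spot signal, so normexp (offset 50) was run on the median. All 51 genes were matched by Entrez gene number to a RefSeq table of GRCm38.p6, and 2 symbols had changed.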

Additional observations from a re-analysis of the deposited data

How the results depend on the processing

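With only 2 arrays a group, the calls depended on the processing. The 8 genes that passed as reported kept their direction in every setting, whereas many of the other tested genes reversed in at least 1. Of all genes, 2941 passed as reported, 8404 without scaling (750 higher, 7654 lower), 6576 with spike-in scaling (468 higher, 6108 lower), 5045 with normexp background correction (2990 higher, 2055 lower), 223 with no filter on dim probes (156 higher, 67 lower), and 533 to 2835 when an array was left out. Of the cyclase, kinase and phosphodiesterase genes, 6 were higher as reported, 12 with normexp, 3 with spike-in scaling, 1 with no filter and 2 to 7 when an array was left out. The 2 lower genes became 13 without scaling, 8 with spike-in scaling, 1 with no filter, 1 at an unadjusted p of 0.01 with at least 1.5-fold, and 1 to 2 when an array was left out. Scaling on the median, quantile scaling, keeping outlier spots and asking for all 4 arrays above background left the same 8 genes.

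The replicate numbers did not clearly pair the samples: the deviations of same-numbered arrays from their group means correlated across genes with r = 0.0751, over 2 pairs. A fit with the replicate number as a block called 1916 genes in all, 5 of these genes higher and 1 lower. Pde9a (adjusted p = 0.0657) and Prkar1b (adjusted p = 0.0567) were lost in it, and the other 6 of the 8 passed.

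Every reversal was in a gene that did not pass as reported. Without scaling these stood at -0.30 (Adcy3), -0.33 (Adcy4), -0.35 (Gucy1b2), -0.054 (Gucy1b3), -0.36 (Pde1b), -0.30 (Pde2a), -0.26 (Pde3b), -0.19 (Pde4a), -0.14 (Pde4b), -0.30 (Pde4c), -0.19 (Pde6c) and -0.20 (Prkg1). With spike-in scaling they stood at -0.40 (Adcy3), -0.43 (Adcy4), -0.079 (Adcy5), -0.038 (Gucy1a3), -0.45 (Gucy1b2), -0.16 (Gucy1b3), -0.47 (Pde1b), -0.40 (Pde2a), -0.36 (Pde3b), -0.29 (Pde4a), -0.25 (Pde4b), -0.41 (Pde4c), -0.29 (Pde6c), -0.070 (Pde7a) and -0.30 (Prkg1). These settings shift every log2 fold change by a constant, -0.38 and -0.49, and median scaling by -0.051, which reversed Gucy1b2 (-0.019) and Pde1b (-0.030). With normexp the reversals were 0.077 (Adcy7), 0.25 (Pde3a), 0.25 (Pde7b), 0.11 (Pde8a) and 0.058 (Prkaca) and with quantile scaling -0.10 (Gucy1b2); the cause of these was not tested. Leaving out an array gave -0.10 to 0.27 for Adcy3, -0.13 to 0.24 for Adcy4, -0.23 to 0.0059 for Adcy7, -0.014 to 0.079 for Gucy1b2, -0.13 to 0.18 for Pde1b and -0.38 to 0.18 for Pde3a. It gave -0.37 to 0.76 for Pde6c, -0.22 to 0.016 for Pde6d, -0.22 to 0.042 for Pde7b, -0.38 to 0.0066 for Prkaca, -0.19 to 0.11 for Prkacb and -0.15 to 0.030 for Prkar2a. A group left with 1 array was assumed to vary like the other.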
